A study of Mus musculus with 13 samples.

Results

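The genes described here are the receptor tyrosine kinase Ret, its 4 GFRA coreceptors (Gfra1, Gfra2, Gfra3 and Gfra4) and the 4 ligands of the GDNF family (Gdnf, Nrtn, Artn and Pspn). They were taken by symbol as a receptor and ligand family and by no cutoff on their values, but with earlier results of these data known. All 9 were found among the 41388 genes of the deposited tables. RNA of adult mouse dorsal root ganglia (DRG), the ganglia that hold the cell bodies of spinal sensory neurons, was sequenced in bulk after cells had been sorted for Ret-EGFP fluorescence. The 13 libraries comprised 4 of male L6S1 (A, D, E and F), 3 of male L345 (A, B and C), 3 of female L6S1 (A, B and C) and 3 of female L345 (A, B and C), where L6S1 stands for ganglia of spinal levels L6 and S1 and L345 for ganglia of L3, L4 and L5. All mice were 3 months old and of strain C57BL/6 with the genotype Tg(Ret-EGFP)SJ, which the series' design text describes as heterozygotes with EGFP at the Ret locus. Every library, L345 included, therefore came from carriers of the reporter. Each library pooled the ganglia of 2 to 9 mice, so a library is the unit of replication, and p-values measure the spread between pools.

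RET is the signalling receptor of the GDNF family, but it binds these ligands only together with a GFRA protein anchored in the cell membrane. GDNF acts mainly through GFRA1, neurturin (Nrtn) through GFRA2, artemin (Artn) through GFRA3 and persephin (Pspn) through GFRA4. In mouse DRG, Ret and Gfra2 are known from nonpeptidergic nociceptors and from C low-threshold mechanoreceptors, Gfra1 from subsets of nonpeptidergic and large neurons, and Gfra3 mainly from peptidergic nociceptors, while the ligands are thought to come mostly from the tissues that the axons reach and from non-neuronal cells. Because cells were sorted by the Ret reporter, the presence of Ret RNA is what the sort selected and is not a finding, and no library of unsorted cells or of reporter-negative cells was analysed here.

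The sorted pools carried neuronal RNA. All 12 pan-neuronal markers were detected in all 13 libraries, from Rbfox3 at 64.6 to 146 CPM (counts relative to the library's scaled total) up to Tubb3 at 2819 to 7865 CPM, whereas the 8 sympathetic neuron genes summed to 4.68 to 40.7 CPM. Of these 8, Phox2a and Slc6a2 were at 0 in 12 of 13 libraries and Hand2 in 10, Dbh stayed at or below 0.424 CPM and Npy at or below 2.57 CPM, while the monoamine transporter Slc18a2 was present in all libraries with a median of 23.3 CPM. Male L6S1 D and E stood apart. The mean gene length per count was 3391 bases in male L6S1 D and 3081 bases in male L6S1 E, against 4065 to 4806 bases in the other 11 libraries, and ribosomal protein genes took 1.13% or more of their counts, against 0.459% to 0.667%. The summed level of the 11 nonpeptidergic nociceptor markers was 1176 CPM in D and 721 CPM in E and ranged from 1569 to 3002 CPM in the other 11 libraries. Of these markers, 6 in D and 8 in E lay below all 11 other libraries, while Mrgpra3, at 181 CPM in E, lay above them all. The summed level of the 10 peptidergic nociceptor markers was 23900 CPM in D and 30916 CPM in E, against 8482 to 14548 CPM elsewhere. The members of that list went both ways: in E, 4 of 10 lay above all 11 other libraries, among them Calca at 17037 CPM and Tac1 at 11125 CPM, and 3 of 10 lay below them all, Trpv1 at 221 CPM, Kit at 21.5 CPM and Prokr2 at 1.05 CPM. The members' differences between the levels over both sexes, and the median over the pathway lists, are therefore given with and without D and E. In bulk RNA, fewer cells of a type and less RNA per cell cannot be told apart.

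Ret and the 4 coreceptors passed the filter on low counts and were tested, and the 4 ligands did not. Compared per length, in RPKM (CPM per kilobase of gene length, with the same library scaling), Gfra3 was the highest member, at 156 ± 47.9 RPKM (SD, n = 13). It was followed by Gfra2 at 73.6 ± 24.2 RPKM, Ret at 25.3 ± 4.62 RPKM, Gfra1 at 11.1 ± 4.26 RPKM and Gfra4 at 3.57 ± 2.05 RPKM. Gfra3 exceeded Gfra2, Gfra2 exceeded Ret and Ret exceeded Gfra1 in 13 of 13 libraries. Gfra1 exceeded Gfra4 in 11 of 13, and in male L6S1 D and E the order was turned round, at 4.17 RPKM of Gfra1 and 4.64 RPKM of Gfra4 in D and 6.26 RPKM of Gfra1 and 9.37 RPKM of Gfra4 in E. The ligands came last, from Pspn at 0.218 ± 0.184 RPKM and Gdnf at 0.0779 ± 0.0674 RPKM to Nrtn at 0.0328 ± 0.0494 RPKM and Artn at 0.00413 ± 0.00792 RPKM. Their own order is not separated by these counts, since Pspn exceeded Gdnf in 9 of 13 libraries and Gdnf exceeded Nrtn in 8 of 13.

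Promoter sequences of RefSeq on GRCm38.p6, 250 bases before to 50 bases after a gene's start, were matched for 6 of 9 members, and those of Gfra1 and Gfra4, the coreceptors among them, and of Gdnf, the ligand with most reads, are shown because their windows differ in the motifs they hold. Capitals mark matches on either strand to the TATA box letters TATAAA, the GC box letters GGGCGG or the RUNX-like letters TGNGGT. N stands for any base, so TGNGGT is looser than the RUNX core, which has T or C there. The 3 motifs were searched because RUNX1 is known to act in mouse nociceptors that express Ret. The letters occur in 13.6%, 35.7% and 45.8% of 32851 promoters of the same length, in that order of motifs. RefSeq gives 2 starts each for Gfra4 and Gdnf. The Gfra1 window is chr19:58455349-58455648 (minus strand), the Gfra4 windows are chr2:131043039-131043338 and chr2:131042633-131042932 (minus strand) and the Gdnf window shown is chr15:7809798-7810097 (plus strand).
Gfra1: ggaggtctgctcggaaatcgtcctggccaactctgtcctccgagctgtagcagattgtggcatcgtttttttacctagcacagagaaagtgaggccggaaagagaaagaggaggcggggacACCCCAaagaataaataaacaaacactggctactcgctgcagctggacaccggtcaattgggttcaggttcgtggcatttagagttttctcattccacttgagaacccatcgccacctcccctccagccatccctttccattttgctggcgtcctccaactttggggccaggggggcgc
Gfra4, first start: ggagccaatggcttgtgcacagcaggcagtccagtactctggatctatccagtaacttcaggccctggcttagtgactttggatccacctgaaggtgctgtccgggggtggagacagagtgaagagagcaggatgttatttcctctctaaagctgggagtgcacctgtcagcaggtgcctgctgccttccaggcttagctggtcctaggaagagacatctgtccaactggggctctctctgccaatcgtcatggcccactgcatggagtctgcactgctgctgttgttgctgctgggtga
Gfra4, second start: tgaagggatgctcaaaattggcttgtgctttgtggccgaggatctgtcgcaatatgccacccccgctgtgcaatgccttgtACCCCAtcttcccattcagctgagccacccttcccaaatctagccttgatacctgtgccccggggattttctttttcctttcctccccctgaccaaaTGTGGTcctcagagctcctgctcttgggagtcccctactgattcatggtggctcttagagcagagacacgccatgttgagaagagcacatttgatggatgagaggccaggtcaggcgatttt
Gdnf: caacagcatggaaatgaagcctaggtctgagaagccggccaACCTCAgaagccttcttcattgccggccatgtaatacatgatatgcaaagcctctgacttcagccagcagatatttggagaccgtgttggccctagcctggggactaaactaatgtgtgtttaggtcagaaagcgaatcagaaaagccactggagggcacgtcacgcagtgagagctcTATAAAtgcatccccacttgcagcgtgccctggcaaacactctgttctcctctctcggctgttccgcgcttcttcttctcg
The Gfra1 window holds 1 match to TGNGGT and 12 CpG pairs, and the first Gfra4 window none of the 3 motifs and 2 CpG pairs. The second Gfra4 window holds 2 matches to TGNGGT and 6 CpG pairs. The Gdnf window shown holds 1 TATA box, 31 bases before the start, 1 match to TGNGGT and 11 CpG pairs. Of these matches to TGNGGT, only TGTGGT in the second Gfra4 window has T or C at N. The other Gdnf window, chr15:7813477-7813776 (plus strand), holds none of the 3 motifs and 22 CpG pairs. A match is a description of letters and shows no binding.

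**Figure D1:**
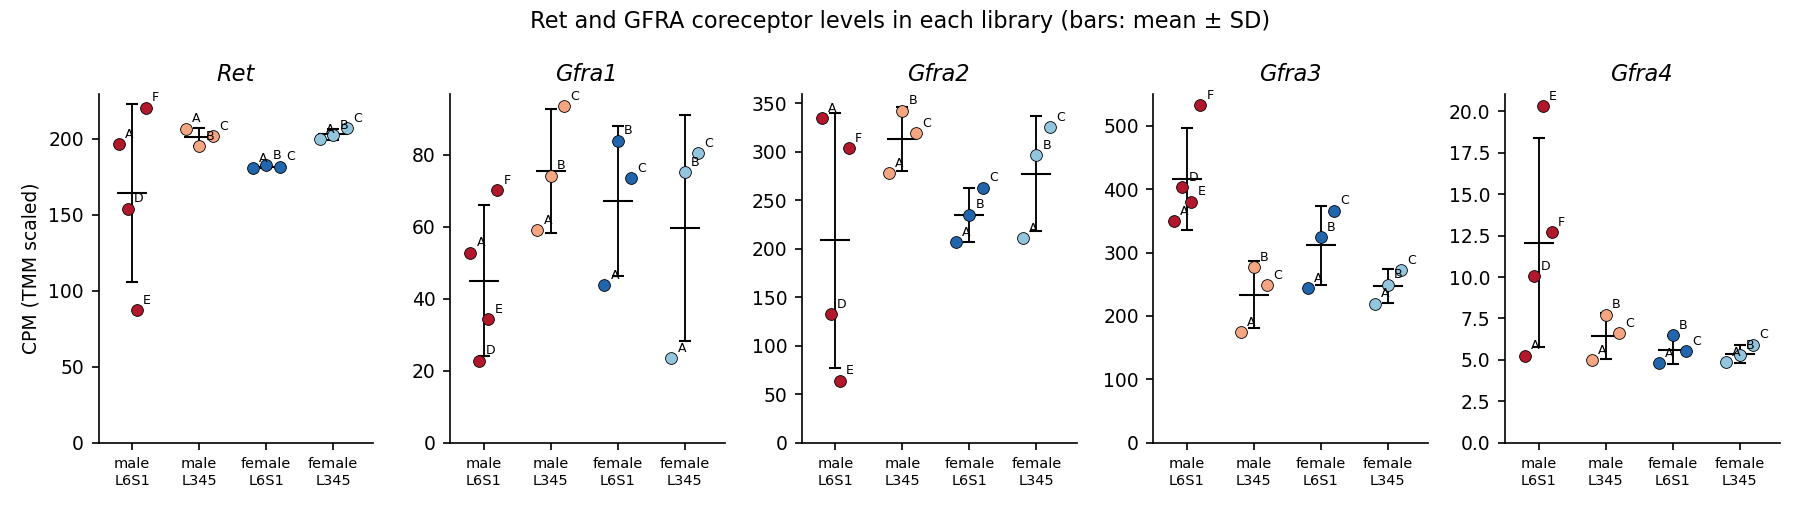
CPM with TMM library scaling (y axis, from 0) of Ret and the 4 coreceptors in each library of male L6S1, male L345, female L6S1 and female L345 (x axis), with the replicate letter beside each point and bars for the mean and SD. Gfra3 lies higher in all 4 male L6S1 libraries than in all 3 male L345 libraries, and male L6S1 D and E hold the lowest Ret and Gfra2 values.

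No member was called at an edgeR adjusted p under 0.05 in any of the 7 comparisons made. The first of these, L6S1 against L345 averaged over the sexes, called 0.448% of the 15406 genes tested. At an unadjusted edgeR p under 0.05, Gfra3 was the only member in that comparison, and 1293 of the 15406 genes tested met that threshold. Gfra3 was also the member with the largest difference. The calls of the other comparisons were few too, at 0.221% of genes for the levels in males, 0.0195% for the levels in females, 0.0779% for male against female over both levels, 0.0844% for male against female at L6S1, 0.0325% at L345 and 0% for the difference of the level effect between the sexes.

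Gfra3 encodes the artemin coreceptor (ENSMUSG00000024366, chromosome 18). It had 349, 403, 380 and 533 CPM in male L6S1 A, D, E and F, against 175, 277 and 248 CPM in male L345 A, B and C. In females it had 243, 325 and 366 CPM in L6S1 A, B and C, against 219, 249 and 272 CPM in L345 A, B and C. The 4 male L6S1 libraries lay above all 3 male L345 libraries, while in females L6S1 A fell among the L345 libraries. Taken over the sexes, 6 of 7 L6S1 libraries exceeded all 6 L345 libraries. The log2 fold change, L6S1 over L345, was 0.58 (SE 0.19, edgeR adjusted p = 0.357) over both sexes, 0.84 (SE 0.26, edgeR adjusted p = 0.137) in males and 0.33 (SE 0.27, edgeR adjusted p = 1) in females. The difference of the level effect, males minus females, was 0.50 on the log2 scale (SE 0.37, edgeR adjusted p = 0.507). For scale, 9.20% of all genes tested had every male L6S1 library above every male L345 library. Over both sexes, 0.539% had every L6S1 library above every L345 library, a stricter pattern that Gfra3 did not meet. Without male L6S1 D and E the difference was 0.62 over both sexes (edgeR adjusted p = 0.252) and 0.91 in males (edgeR adjusted p = 0.426). It reached the threshold in males by DESeq2 (adjusted p = 0.0253) and by edgeR without male L6S1 A (adjusted p = 0.0270). Calls were many under both settings, at 965 of 12812 genes by DESeq2 and 3135 of 15294 genes without male L6S1 A. The summed peptidergic marker level was 11875 to 30916 CPM in male L6S1, against 8482 to 9988 CPM in male L345, a sum that Calca and Tac1 dominate. It was 10413 to 12246 CPM in female L6S1, against 9876 to 14548 CPM in female L345. The median log2 deviation of the 10 markers from their means was 0.011 to 0.38 in male L6S1, against -0.35 to 0.031 in male L345, and -0.073 to 0.18 in female L6S1, against -0.17 to -0.037 in female L345. The part of these markers in the Gfra3 difference was not tested.

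Gfra2, the neurturin coreceptor (ENSMUSG00000022103, chromosome 14, 70890130 to 70979838, build GRCm38), was lowest in the libraries that stand apart. It stood at 335, 132, 64.0 and 304 CPM in male L6S1 A, D, E and F, against 278, 342 and 319 CPM in male L345 A, B and C. In females it stood at 207, 235 and 263 CPM in L6S1 A, B and C, against 211, 297 and 325 CPM in L345 A, B and C. Male L6S1 A and F lay within the male L345 range, and D and E lay far below all other libraries. Over both sexes the log2 fold change was -0.41 (SE 0.30, edgeR adjusted p = 0.666), and without D and E it was -0.11 (edgeR adjusted p = 0.837). In males it was -0.58 (SE 0.41, edgeR adjusted p = 0.367) with D and E and 0.021 without them.

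Ret itself (ENSMUSG00000030110, chromosome 6, 118151748 to 118197744) showed the narrowest spread outside those libraries. It had 197, 154, 87.2 and 221 CPM in male L6S1 A, D, E and F, against 207, 195 and 202 CPM in male L345 A, B and C. In females it had 181, 182 and 182 CPM in L6S1 A, B and C, against 200, 202 and 207 CPM in L345 A, B and C. The 3 female L6S1 libraries lay below all 3 female L345 libraries, a pattern that 3.86% of all genes tested shared. The log2 fold change was -0.16 in females (SE 0.29, edgeR adjusted p = 1) and -0.23 over both sexes (SE 0.20, edgeR adjusted p = 0.708), and without D and E the difference over both sexes was -0.06 (edgeR adjusted p = 0.869).

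Gfra1, the GDNF coreceptor (ENSMUSG00000025089, chromosome 19, 58235604 to 58455909), had 52.9, 22.9, 34.3 and 70.3 CPM in male L6S1 A, D, E and F, against 59.1, 74.2 and 93.5 CPM in male L345 A, B and C. In females it had 43.8, 84.0 and 73.6 CPM in L6S1 A, B and C, against 23.6, 75.2 and 80.4 CPM in L345 A, B and C. The lowest values outside male L6S1 were those of the A libraries. The log2 fold change was -0.29 over both sexes (SE 0.31, edgeR adjusted p = 0.749), -0.75 in males (SE 0.42, edgeR adjusted p = 0.261) and 0.17 in females (SE 0.45, edgeR adjusted p = 1). Without male L6S1 D and E it was -0.071 over both sexes (edgeR adjusted p = 0.951) and -0.31 in males (edgeR adjusted p = 0.784). In the replicate block fit the value over both sexes turned to 0.18 (edgeR adjusted p = 0.790). In the annotation, 7.60% of its exon bases overlap the gene Gm16277 on the opposite strand, and since the handling of strand is not given, reads of the pair cannot be separated there.

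Gfra4, the persephin coreceptor (ENSMUSG00000027316, chromosome 2, 131039632 to 131043088), was low everywhere. It had 5.25, 10.0, 20.3 and 12.7 CPM in male L6S1 A, D, E and F, against 4.98, 7.73 and 6.62 CPM in male L345 A, B and C. In females it had 4.81, 6.50 and 5.52 CPM in L6S1 A, B and C, against 4.88, 5.27 and 5.91 CPM in L345 A, B and C. Male L6S1 D, E and F exceeded all other libraries, and male L6S1 A lay among them. The log2 fold change was 0.48 over both sexes (SE 0.26, edgeR adjusted p = 0.603) and 0.90 in males (SE 0.36, edgeR adjusted p = 0.161). Without D and E it was 0.26 over both sexes and 0.47 in males. In males the difference reached the threshold by edgeR without male L6S1 A (adjusted p = 0.0219), a fit that called 3135 of 15294 genes. In the replicate block fit the log2 fold change was 0.063 over both sexes (edgeR adjusted p = 0.944). In males that fit gave 0.075, which rests on the A pair alone, since no other male letter occurs at both levels. These are between 67 and 349 counts per library, and 3.70% of the exon bases are shared with the microRNA gene Mir6973b on the same strand.

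**Figure D2:**
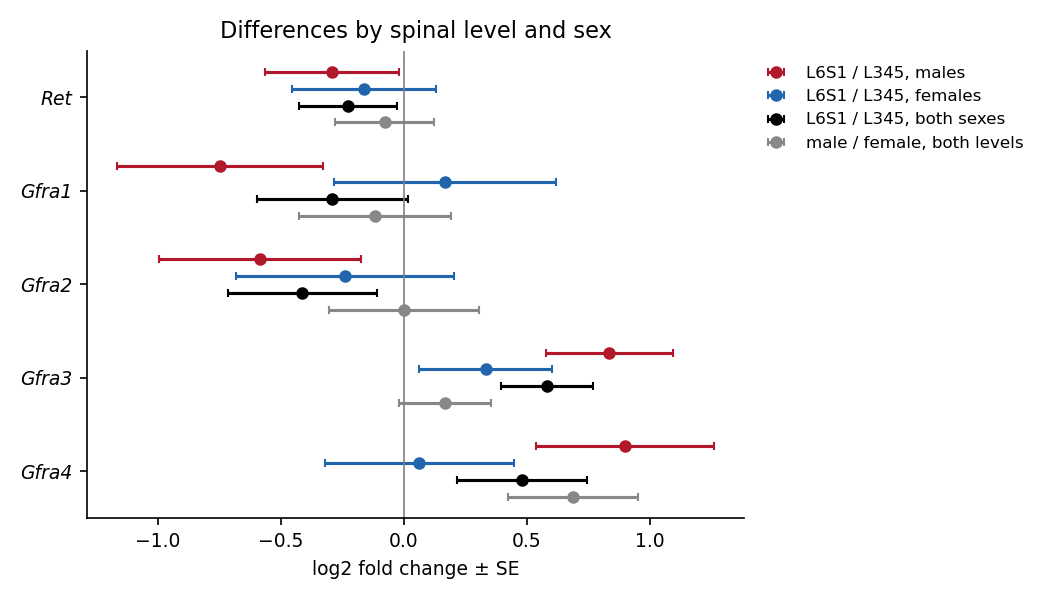
Log2 fold change with its SE (x axis) of Ret and the 4 coreceptors (y axis) for L6S1 over L345 in males, in females and in both sexes, and for male over female in both levels. Gfra3 is at 0.84 in males and 0.33 in females, and no value shown passed the adjusted threshold.

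The make-up of the coreceptor pool differed between the levels: Gfra2 took a smaller share and Gfra3 a larger share at L6S1. In each library the counts per kilobase of Gfra1, Gfra2, Gfra3 and Gfra4 were set to a sum of 100%, a quantity that needs no scaling between libraries. Gfra3 took 61.7%, 81.1%, 84.8% and 71.5% of that sum in male L6S1 A, D, E and F, against 48.4%, 54.5% and 52.6% in male L345 A, B and C. In females it took 63.6%, 65.4% and 66.6% in L6S1 A, B and C, against 62.0%, 55.2% and 55.1% in L345 A, B and C. The levels did not overlap within either sex, and across the sexes only male L6S1 A fell below a library of L345, female A. Gfra2 took 34.1%, 15.3%, 8.22% and 23.5% in male L6S1 A, D, E and F, against 44.3%, 38.8% and 38.9% in male L345 A, B and C. In females it took 31.1%, 27.3% and 27.6% in L6S1 A, B and C, against 34.3%, 37.7% and 37.9% in L345 A, B and C. All 7 L6S1 libraries lay below all 6 L345 libraries in the Gfra2 share. How often shares within other sets of genes separate in this way was not computed. In CPM neither gene was called between the levels over both sexes. The log2 fold change was -0.41 for Gfra2 (edgeR adjusted p = 0.666), nearer 0 without D and E, and 0.58 for Gfra3 (edgeR adjusted p = 0.357).

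The Gfra2 share averaged 23.9% ± 9.12 in L6S1 (SD, n = 7) and 38.6% ± 3.25 in L345 (n = 6), and the difference, averaged within the sexes, was -14.2 percentage points (exact permutation test within sex, two-sided, p = 0.00429, adjusted over 8 tests 0.0171). The Gfra3 share averaged 70.7% ± 9.00 in L6S1 (n = 7) and 54.6% ± 4.42 in L345 (n = 6), a difference of 15.4 points with the same exact p of 0.00429 and adjusted p of 0.0171. Both shares are parts of the same sum and mirror each other, so they are not separate pieces of evidence. The smallest p that the 700 arrangements allow is 0.00143. Without male L6S1 D and E the differences were smaller and still passed, at -9.94 points for Gfra2 and 11.3 points for Gfra3 (exact permutation test, adjusted p = 0.0200 for each). Over the 4 pairs of libraries with the same letter, the mean difference was -8.55 points for Gfra2 and 9.13 points for Gfra3, with the same sign in 4 of 4 pairs and the smallest difference, -3.16 and 1.54 points, in the female A pair. Taken as pairs, these differences have an exact sign-flip permutation p of 0.125, the smallest that 4 pairs allow, so a paired test of this size cannot pass. The p of 0.00429 treats the libraries of a sex as exchangeable. Within females alone the Gfra2 share differed by -7.97 points (exact permutation test, p = 0.100, the smallest that 3 against 3 allows), and within males by -20.4 points (exact permutation test, p = 0.0571). Over the 8 tests within a sex, none passed adjustment. The summed nonpeptidergic marker level was 721 to 2461 CPM in male L6S1, against 2578 to 3002 CPM in male L345, and 2155 to 2516 CPM in female L6S1, against 1569 to 2779 CPM in female L345. Its part in the shares was not tested.

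Neither of the remaining coreceptors passed between the levels. The Gfra1 share was 3.78% ± 1.45 in L6S1 (SD, n = 7) and 5.48% ± 1.62 in L345 (n = 6), a difference of -1.54 points (exact permutation test, adjusted p = 0.266). Leaving out female L345 A, where Gfra1 took 2.43%, moved it to -2.13 points (exact permutation test, adjusted p = 0.0381). In males, Gfra1 took 1.68% to 3.43% in the 4 L6S1 libraries, against 5.31% to 7.21% in the 3 L345 libraries, a full separation of -3.34 points (exact permutation test, p = 0.0286, the smallest that 4 against 3 allows, and 0.152 adjusted over the 8 tests within a sex). In females the difference was 0.265 points (exact permutation test, p = 0.800). The Gfra4 share was 1.68% ± 1.15 in L6S1 (n = 7) and 1.23% ± 0.124 in L345 (n = 6), with a difference of 0.370 points (exact permutation test, adjusted p = 0.636).

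**Figure D3:**
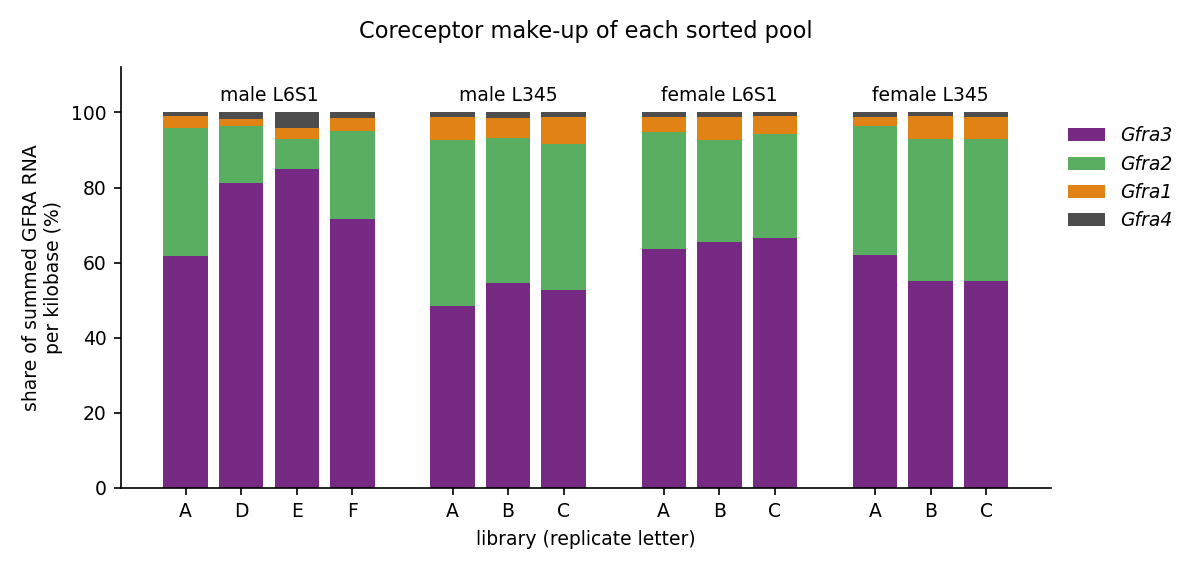
Share of each coreceptor in the summed GFRA RNA per kilobase (y axis, percent) in each library (x axis, replicate letters) of male L6S1, male L345, female L6S1 and female L345. The Gfra2 band is narrower in the 7 L6S1 libraries, at 8.22% to 34.1%, than in the 6 L345 libraries, at 34.3% to 44.3%.

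The ratio of Gfra3 to Gfra2 per kilobase was 1.81, 5.29, 10.3 and 3.05 in male L6S1 A, D, E and F, against 1.09, 1.41 and 1.35 in male L345 A, B and C. In females it was 2.04, 2.40 and 2.42 in L6S1 A, B and C, against 1.81, 1.46 and 1.46 in L345 A, B and C. Gfra3 was thus the more abundant of the pair in every library, and the widest ratios were those of male L6S1 E and D. The summed coreceptor RNA per kilobase was 6.43 to 18.9 times that of Ret, with the highest value in male L6S1 E, where Ret was lowest. All mice carried the reporter, described as EGFP at the Ret locus, and its effect on Ret RNA was not tested. The ratios to Ret, and the place of Ret in the order of the members, therefore hold for carriers only.

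Male and female libraries differed most in Gfra4. It averaged 12.1 ± 6.29 CPM in male L6S1 (SD, n = 4) and 5.61 ± 0.849 CPM in female L6S1 (n = 3), a log2 fold change of 1.11 (SE 0.37, edgeR adjusted p = 0.130). At L345 it averaged 6.44 ± 1.38 CPM in males and 5.35 ± 0.522 CPM in females (n = 3 each), a log2 fold change of 0.27 (SE 0.38, edgeR adjusted p = 1.00). The L6S1 difference reached the threshold by DESeq2 (adjusted p = 0.0422) and by edgeR without male L6S1 A (adjusted p = 0.0144). Calls were many under both settings, at 1281 of 11772 genes by DESeq2 and 3149 of 15294 genes without male L6S1 A. The difference was 0.67 without male L6S1 D and E (edgeR adjusted p = 0.608). For Gfra3 the log2 fold change, male over female, was 0.42 at L6S1 (SE 0.26, edgeR adjusted p = 0.296) and -0.08 at L345 (SE 0.27, edgeR adjusted p = 1.00). Over both levels, Ret was at -0.078, Gfra1 at -0.12 and Gfra2 at 0.0016, each within its SE of 0. None of the 4 coreceptor shares passed between the sexes, with Gfra4 nearest at 1.77% ± 1.10 in males (n = 7) and 1.12% ± 0.120 in females (n = 6; exact permutation test, adjusted p = 0.266). The sample numbers of the female libraries, of male L6S1 E and F and of the other male libraries form separate runs. What these runs mark is not known here. A difference between the sexes cannot be told apart from one between the runs.

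Each member's log2 CPM was also set against the log2 summed level of the marker lists across the libraries, a description in which the points share depth, scaling and the 2 libraries that stand apart. Gfra2 and the nonpeptidergic markers had a Pearson r of 0.961 over 13 libraries and 0.737 over the 11 without D and E. For Gfra1 and the nonpeptidergic markers r was 0.796 over 13 and 0.934 over 11, and for Gfra1 and the A-fibre neuron markers it was 0.816 and 0.785. Ret and the nonpeptidergic markers had 0.875 over 13 libraries but 0.100 over the 11, so that this relation rests on D and E. Gfra3 and the peptidergic markers had 0.521 over 13 and 0.453 over 11. Over the 11, Gfra3 had a higher r with the A-fibre neuron markers, 0.674, and it had -0.686 with the mean gene length per count. Gfra4 and the peptidergic markers had 0.731 over 13 and 0.0654 over 11, and Gfra4 had -0.847 and -0.582 with the mean gene length per count. Between members, Ret and Gfra2 correlated at 0.938 over 13 libraries and 0.522 over 11, and Gfra3 and Gfra4 at 0.676 and 0.722.

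**Figure D4:**
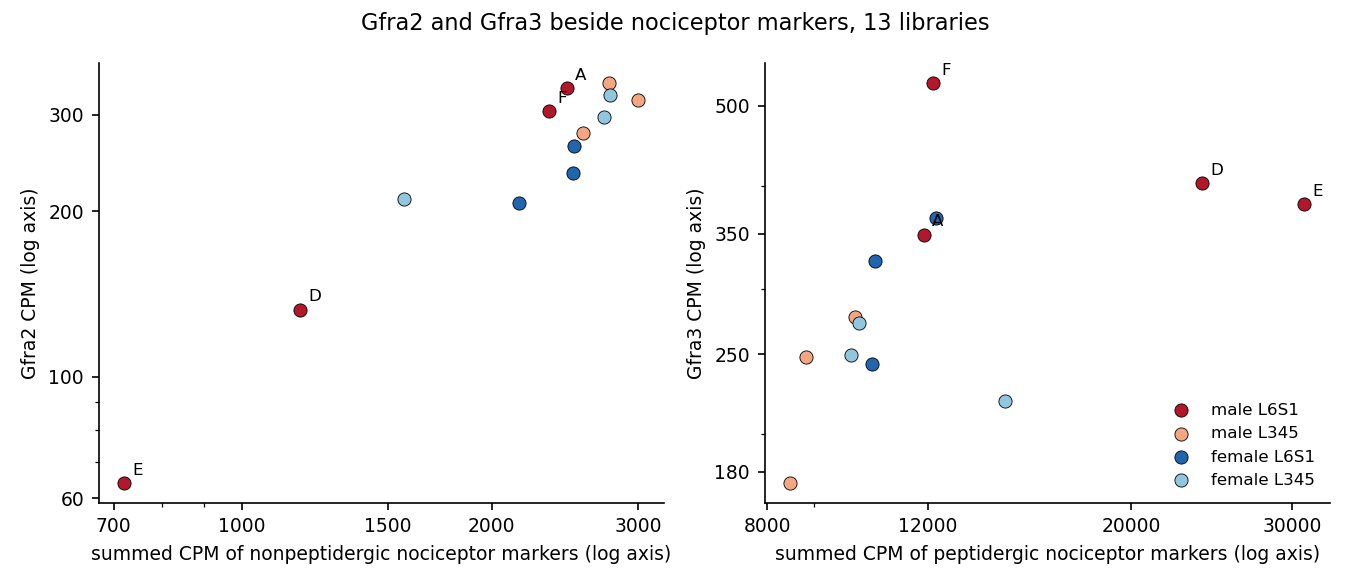
CPM of Gfra2 against the summed CPM of 11 nonpeptidergic nociceptor markers (left) and of Gfra3 against that of 10 peptidergic nociceptor markers (right) in each of 13 libraries, all axes logarithmic, with letters on the male L6S1 libraries. Male L6S1 D and E lie at the low end of both axes on the left and at the high end of the marker axis on the right.

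Genes whose log2 CPM was most like that of a member over the 13 libraries are given with Pearson r over 13 and, after it, over the 11 without D and E. For Ret they were Mamld1 (0.986 and 0.832), Syt11 (0.978 and 0.561) and Sfxn3 (0.976 and 0.739). Gfra1 was closest to the lysophosphatidic acid receptor Lpar5 (0.959 and 0.935), itself on the nonpeptidergic list, and then to Moxd1 (0.950 and 0.915) and Timmdc1 (0.934 and 0.889). Gfra2 was closest to Pknox2 (0.988 and 0.919), the ectonucleotidase Entpd3 (0.987 and 0.947) and the potassium channel Kcnd1 (0.984 and 0.879). For Gfra3 they were Uckl1 (0.966 and 0.961), the monoamine transporter Slc29a4 (0.950 and 0.958) and Ctnnbl1 (0.947 and 0.957), whose values hardly depended on D and E.

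Of the ligands, Gdnf (ENSMUSG00000022144, chromosome 15, 7811011 to 7837575) held most reads, 71 counts over all libraries. It had 4, 6, 7 and 2 counts in male L6S1 A, D, E and F, against 0, 7 and 3 counts in male L345 A, B and C. In females it had 14, 13 and 9 counts in L6S1 A, B and C, against 2, 4 and 0 counts in L345 A, B and C. The 3 female L6S1 libraries were the 3 highest of all 13 in counts, and 4.89% of all genes tested had every female L6S1 library above every female L345 library in CPM. Gdnf did not pass the filter, and edgeR without that filter gave a log2 fold change of 2.55 in females (edgeR adjusted p = 1) and 1.48 over both sexes (edgeR adjusted p = 0.588), values that rest on few counts. Fits with libraries left out kept the filter, and Gdnf passed it in some of them. It did not pass without female L6S1 A or without female L6S1 B, where its counts were highest, so these fits are no check of the difference. In them the female value was 3.51 without female L345 B and 1.93 without female L345 C. Over both sexes the value was 1.04 without male L6S1 D and E. The persephin gene Pspn (ENSMUSG00000002664, chromosome 17) had 28 counts in all, with 3, 3, 4 and 4 in male L6S1 A, D, E and F, against 1, 0 and 2 in male L345 A, B and C. In females it had 2, 3 and 0 in L6S1 A, B and C, against 0, 0 and 6 in L345 A, B and C. The neurturin gene Nrtn (ENSMUSG00000039481, chromosome 17) had 9 counts in all and never more than 3 in a library. The artemin gene Artn (ENSMUSG00000028539, chromosome 4) had 3 counts, 1 each in male L6S1 F, male L345 C and female L6S1 A. A floor of 3 counts corresponded to 0.109 to 0.223 CPM per library, so that Nrtn and Artn were not detectable above it in any library, and no fold change is given for them or for Pspn.

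**Figure D5:**
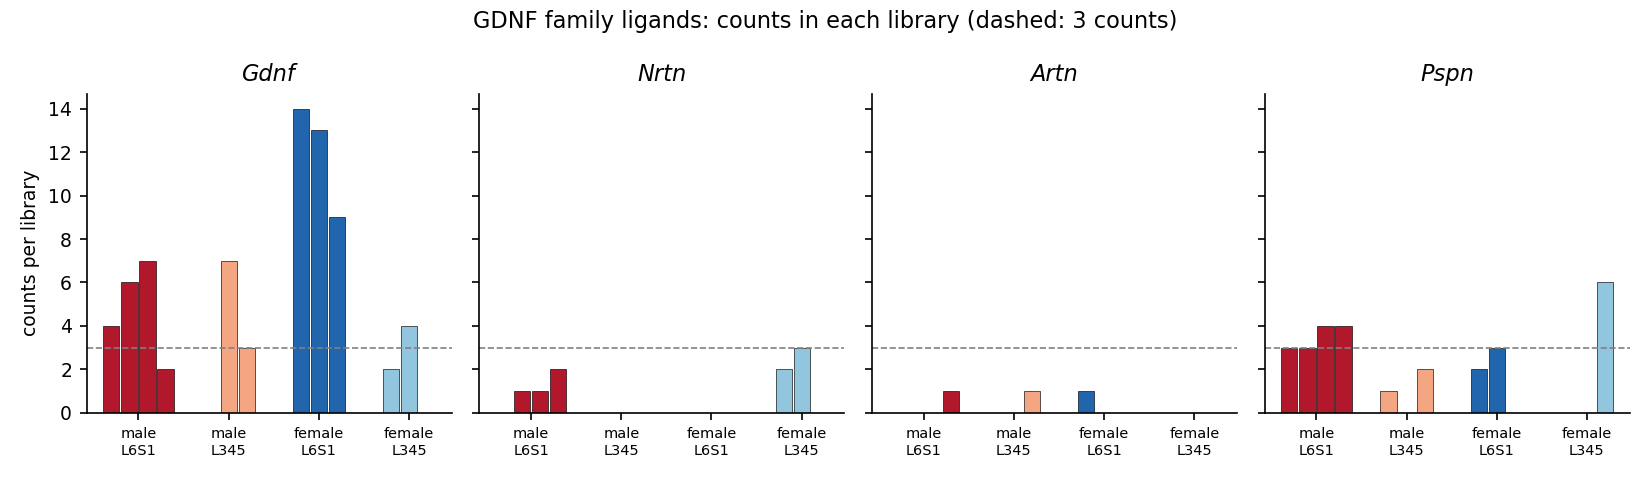
Counts per library (y axis) of the 4 ligands in male L6S1, male L345, female L6S1 and female L345, 1 bar per library in letter order, with a dashed line at 3 counts. Gdnf reaches 9 to 14 counts in female L6S1 and at most 7 elsewhere, and Nrtn and Artn never exceed the line.

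The intracellular pathway below RET was followed in 4 lists of 77 genes, of which 72 were tested, and no gene of these lists was called in any of the 7 comparisons. For L6S1 against L345 over both sexes, 23 of 72 had a positive log2 fold change and the median was -0.14, beside 0.016 over all genes tested. The median was -0.22 in males and 0.032 in females. Without male L6S1 D and E, 34 of 70 genes tested were positive and the median was -0.015 over both sexes, beside -0.0061 over all genes, and it was -0.058 in males. Among the 24 tested signalling adaptors (median -0.07), Pdlim7, whose protein binds the RET tail, was at 0.87 (SE 0.26, edgeR adjusted p = 0.271). Dok6, a docking protein of RET with only 5 to 32 counts per library, was at 0.50. Shc4 was at -1.003 (SE 0.30, edgeR adjusted p = 0.268) and the Ras activator Sos1 at -0.49. Among the 23 signalling kinases and their partners (median -0.14), the small GTPase Hras was at 0.45 and the kinase Map2k2 at 0.38, and the phosphoinositide 3-kinase genes Pik3ca and Pik3r1 at -0.53 and -0.39.

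Among the 20 tested genes of feedback and turnover (median -0.29, and -0.14 without male L6S1 D and E), the receptor signalling inhibitor Spry1 was at 1.05 (SE 0.55, edgeR adjusted p = 0.597) and the phosphatase Dusp14 at 0.57, while the ubiquitin ligase Cbl, which marks activated receptors for breakdown, was at -0.60 (SE 0.22, edgeR adjusted p = 0.481) and Spry2 at -0.57. Spry1 was near the floor, at 2 to 26 counts per library and a median of 0.356 CPM. The summed level of the feedback and turnover list was 793 CPM in male L6S1 D and 467 CPM in male L6S1 E, against 1223 to 1792 CPM in the other 11 libraries. Of the 5 tested transcription factors downstream of the pathway (median -0.10), Fos was at 0.32 and Egr1 at 0.11, and Etv1 and Etv5 at -0.26 and -0.14. Apart from the intracellular pathway, 6 other partners of the ligands and coreceptors at the membrane were tested (median -0.13, none called). The heparan sulfate carrier Sdc3 was at 0.19 and the cadherin Cdh2 at 0.07, and the integrin subunit Itga1 and the receptor Met at -0.85 and -0.28. Itga1 had only 5 to 47 counts per library and Met 2 to 27.

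Among the marker lists of neuron types and other cells, immune markers were the ones with calls between the levels. Of 15 listed, 7 were tested, and for both sexes 3 were called and all 7 had a positive log2 fold change. Of all genes tested, 0.448% were called in that comparison. The list was chosen with earlier results of these data known, so its number of calls is no independent finding. Of its other genes, C1qa and Cd3e were at 0 in 10 of 13 libraries and C1qc in 7, and Ptprc had a median of 0.0602 CPM. The cells behind the calls were not tested. The T cell receptor constant gene Trac (log2 fold change 1.94, edgeR adjusted p = 0.00193), the complement gene C1qb (2.18, edgeR adjusted p = 0.00667) and the immunoglobulin gene Igha (2.64, edgeR adjusted p = 0.0141) were higher at L6S1. In females alone none of these 3 was called (edgeR adjusted p = 0.93 for Trac, 0.72 for C1qb and 0.74 for Igha). In males alone Igha was not called (edgeR adjusted p = 0.072). The summed level of the immune list was low, at 19.7 to 42.5 CPM in male L6S1 and 10.5 to 19.7 CPM in male L345, and 17.9 to 20.5 CPM in female L6S1 and 13.3 to 16.1 CPM in female L345. Between the sexes over both levels the only list gene called was Prokr2, a prokineticin receptor on the peptidergic list, lower in males (log2 fold change -1.36, edgeR adjusted p = 0.0377), a call that ended without male L6S1 D and E (-1.24, edgeR adjusted p = 0.166). The 3 immune genes were called without these libraries too, at an edgeR adjusted p of 0.00451 for Trac, 0.0309 for C1qb and 0.0244 for Igha. The satellite glia and Schwann cell markers summed to 4738 CPM in male L6S1 D and 9871 CPM in male L6S1 E, where Apoe alone held 4985 CPM, against 3339 to 4887 CPM in the other 11 libraries. Of the 15 markers, 3 lay above and 1 below all 11 others in D, and 5 above and 4 below in E. Their part in the member differences was not tested.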

How the data were processed

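Per the file headers, each of the 13 deposited tables lists a count, a CPM and an RPKM per gene, with a gene length. The deposited counts are whole numbers without normalization and were the input of every test. The deposited CPM is the authors' count relative to the library's own total, and the deposited RPKM is that CPM per kilobase of gene length in the file. Both served as a check, and the CPM and RPKM printed here also carry a TMM factor (0.925 for male L6S1 D, 0.796 for E, 1.01 to 1.05 otherwise). Total counts were 13030096 to 27011995 per library. Libraries were made from 10 ng of RNA with a SMARTer amplification kit, per the labels' protocols. Of tools and builds, the submitters' processing notes list Salmon, Subread, featureCounts 1.4.5, STAR 2.0.4b, mm10 and GRCm38.p2, with no roles. How strand and multi-mapping reads were handled is not given in the sources used here. Amplified reads carry no molecular identifiers, so floors cover counting error only.

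In R 4.3.3, 15406 genes that passed filterByExpr were tested with the robust quasi-likelihood test of edgeR 4.0.16. The 13 libraries entered a joint fit of 4 group means, and p-values were adjusted by Benjamini and Hochberg over the tested genes. The SE was derived from the fold change and the F statistic. Coreceptor shares used exact permutation tests within sex or level, adjusted over 8 tests. Alternatives were other size factors, no filter, voom of limma 3.58.1, DESeq2 1.42.0, each library left out in turn, male L6S1 D and E left out together and the replicate letter as a block. Removing each library's trend with gene length (loess, span 0.5), alone or with the block, was chosen after seeing the data, as was leaving D and E out of the pathway lists. Scripts were tested on simulated data. Libraries with the same letter in both levels of a sex deviated together to differing degrees. The correlations were 0.520, 0.203 and 0.488 for female A, B and C and 0.101 for male A. Female L6S1 B correlated more with a female L345 library of another letter. In the replicate block fits and the sign-flip test all were treated as pairs, on that partial ground from the data. The labels do not say what a letter marks. The main edgeR fit and the main share tests did not use the letters.

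Members and lists were chosen with earlier results of these data known. All members are named, with the 2 highest and 2 lowest genes of each pathway list over both sexes, any called list gene and the 3 genes most like Ret, Gfra1, Gfra2 and Gfra3 among genes averaging 3 or more on the log2 CPM scale. The symbols of 40254 identifiers came from GENCODE M21 on GRCm38, and 1134 identifiers without a symbol held 0.109% of counts. Spry3 and Tafa4 were not used here.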

Additional observations from a re-analysis of the deposited data

How the results depend on the processing

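In 5 of the 7 comparisons no member was called under any alternative. For the levels in males, 2 members were called without male L6S1 A (Gfra3 and Gfra4) and 1 by DESeq2 (Gfra3), against 0. Leaving out 1 library at a time gave 0 to 2. Among all genes, 3135 of 15294 were called without male L6S1 A and 965 of 12812 by DESeq2, against 34 of 15406 in the main fit. For male against female at L6S1, 1 member was called without male L6S1 A and 1 by DESeq2 (Gfra4 in each case), against 0, with 0 to 1 over the libraries left out. Among all genes, 3149 of 15294 were called without male L6S1 A and 1281 of 11772 by DESeq2, against 13 of 15406 in the main fit. Over both sexes and in females the replicate block changed no call of a member. Among all 15406 genes, 90 were called with the block over both sexes, against 69 in the main fit. In females 56 were called with the block, against 3 in the main fit. In males the block rests on the A pair alone and cannot check the other male libraries. Small log2 fold changes turned sign, and none of these turned values was called. The cause was not tested. Without male L6S1 D and E, the levels in males gave 0.044 for Ret and 0.021 for Gfra2, the difference between the sexes 0.21 for Ret and 0.26 for Gfra2, male against female over both levels 0.084 for Ret and 0.10 for Gfra1, and at L6S1 0.19 for Ret and 0.43 for Gfra2. Removing the length trend gave Ret 0.038 for the levels in males, 0.26 for the difference between the sexes, 0.072 for male against female and 0.20 at L6S1. With the replicate block, Gfra1 was 0.18 over both sexes (0.15 with the length trend removed too) and Gfra2 0.27 in males (the A pair alone). Gfra2 for male against female was -0.047 with library totals alone and -0.13 by limma voom.
Over the libraries left out one at a time, the log2 fold changes that turned ran from -0.22 to 0.44 for Gfra1 and from -0.053 to 0.16 for Gfra4 in the levels in females. For male against female over both levels they ran from -0.16 to 0.018 for Ret, from -0.33 to 0.021 for Gfra1 and from -0.16 to 0.14 for Gfra2. At L6S1 they ran from -0.32 to 0.053 for Ret and from -0.50 to 0.11 for Gfra2, and at L345 from -0.036 to 0.0082 for Ret, from -0.051 to 0.61 for Gfra1 and from -0.22 to 0.090 for Gfra3. The difference between the sexes for Ret ran from -0.30 to 0.070.

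The Gfra2 and Gfra3 share differences between the levels kept their sign under all 18 alternatives each, from -16.5 to -8.55 points and from 9.13 to 17.5 points, and passed in the 17 without the replicate block. The values nearest 0 were those of the block, -8.55 and 9.13 points, which rests on 4 pairs, leaves out 5 libraries and can give no p under 0.125 (exact permutation test). The Gfra1 share difference ran from -2.13 to -1.23 points over the libraries left out and passed without female L345 A. The Gfra4 share difference between the levels turned to -0.0807 points without male L6S1 D and E and to -0.144 points with the replicate block. For male against female it ran from 0.254 to 0.806 points over the libraries left out and passed without male L6S1 A. The male against female share differences turned to 2.08 points for Gfra2 and -2.09 points for Gfra3 without D and E, and to 0.0192 points for Gfra1 with the length trend removed. Depth limits the ligands, which had at most 14 counts in a library.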
